A study of Mus musculus with 16 samples.

Results

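Livers with a liver-specific knockout of miR-33 were compared with wild-type livers on high-fat diet, across all genes of the deposited count table. The comparison was defined by the labels: 5 libraries with diet HFD and genotype miR-33 Liver knockout, and 4 with diet HFD and genotype Wildtype, which are 9 of the 16 libraries of the series. The other 7 libraries came from livers on chow, 4 knockout and 3 wild type, and served as the same contrast in samples that share no library with the high-fat comparison. The chow titles run from 213 to 216 in knockout and from 217 to 220 in wild type, and the high-fat titles from 4935 to 4986. What these numbers stand for is not stated. An effect that follows them cannot be told apart from genotype on chow, or from diet across the series. All livers are labelled strain C57BL/6, and total RNA depleted of ribosomal RNA was sequenced. The labels give no sex, age, length of feeding or litter, and they do not say whether the wild-type mice carried floxed alleles or a Cre transgene. The deposited name of the table includes Alb-Cre, a Cre recombinase under the albumin promoter, which is active in hepatocytes. Whether each library is its own animal is not stated in the labels. The p-values therefore speak of library-to-library spread, part of which may be technical.

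miR-33 is a microRNA encoded within an intron of Srebf2, the gene of the transcription factor SREBP2 that switches on cholesterol synthesis and uptake. It is known to pair through its seed with the 3′ untranslated regions of messages for sterol export, fatty acid oxidation and energy sensing, and so to lower their stability or translation. Abca1, which loads cellular cholesterol onto apolipoprotein A-I to form HDL, is its best known target in liver. The level of miR-33 was not analysed here, and the deletion therefore has no check in these data.

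The sequences below show the seed of miR-33-5p and its matches in some of the reported targets. Of the 27 targets tested, 11 had no such match. The mature mouse miR-33-5p, from RefSeq on GRCm38.p6, lies at chr15:82198127-82198147 on the plus strand, and its seed (bases 2 to 8) is in capitals. The other lines are stretches of 3′ untranslated regions on GRCm38 (GENCODE M21), read on the message strand, with each 7-base match to the seed, CAATGCA, in capitals. Abca1 is shown at chr4:53033783-53033812 (minus strand), Crot at chr5:8966685-8966707 (minus), Cpt1a at chr19:3385471-3385493 (plus), Hadhb at chr5:30184134-30184156 (plus), Prkaa1 at chr15:5181216-5181238 (plus) and Sirt6 at chr10:81621815-81621837 (minus).
miR-33-5p: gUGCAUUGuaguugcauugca
Abca1: tattCAATGCAATGCActtCAATGCAacga
Crot: cctgtgttgcaaccaCAATGCAa
Cpt1a: ctcctgagcagttacCAATGCAa
Hadhb: tgggcaatgccatttCAATGCAc
Prkaa1: aaatgtaaagggagtCAATGCAa
Sirt6: gctcccagaagctccCAATGCAa
Within these 30 bases the Abca1 message holds 3 matches, and the first pair of them overlaps. Among 13117 tested genes with an annotated 3′ untranslated region, 12 (0.0915%) had 3 or more matches and 987 (7.52%) had at least 1.

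Library totals were 16149911 to 29469645 estimated counts on high-fat diet. Values below are CPM, counts per library total after TMM scaling. Alb, the hepatocyte albumin gene, had 43555 to 63231 CPM in these libraries. Summed hepatocyte markers overlapped between the groups, at 73176 to 89818 CPM in wild type and 74023 to 92531 in knockout. Ddx3y of the Y chromosome had at least 58.6 CPM and Xist at most 0.452 in every high-fat library. Nnt, which carries a deletion in a C57BL/6 substrain, had 33.4 to 74.1 CPM in all of them. A count per gene does not show which exons were read, so the substrain is not known from it. Reads of the ribosomal RNA gene took 1.36% to 10.3% of the counts in wild type and 0.637% to 12.3% in knockout. Knockout library 1 stood apart from the other 8 on the first principal component, at -59.9 against -3.86 to 21.8, and results that rest on it are given with and without it.

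One gene passed the test over all genes. Hist1h2br, which encodes a copy of the core histone H2B (chr13:21833743-21837530, mm10), rose in knockout livers. It had 0.611, 0.383, 0.168 and 0.319 CPM in wild-type libraries 1 to 4 and 4.21, 3.33, 2.64, 3.38 and 3.77 CPM in knockout libraries 1 to 5. The groups were far apart and the levels low, with 4 to 16 estimated counts in wild type and 87 to 114 in knockout. The log2 fold change was 3.18 ± 0.33 (SE; 95% interval 2.49 to 3.88), and the adjusted p by edgeR was 0.000248. This was 1 of 16830 genes tested, or 0.00594%. It passed in every fit that left out a high-fat library, with adjusted p values of 0.000382 to 0.00356. At an unadjusted p under 0.05 the count was 641 genes (3.81%), of which 274 (1.63%) were higher and 367 (2.18%) lower in knockout. That count ran from 415 without wild-type library 4 to 1044 without wild-type library 1, and was 1002 without knockout library 4. With all libraries the share of 3.81% lay below the 0.05 that the threshold itself allows with no gene changed. In 208 genes (1.24%) the groups did not overlap, 100 of them higher and 108 lower.

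The remaining H2B genes were split. Hist1h2bq, at chr13:21806612-21810197 beside it, had 0 to 0.168 CPM in wild type and 0.942 to 1.77 in knockout, and its log2 difference was 3.57 ± 0.63 (edgeR adjusted p = 0.0884). Hist1h2bk had 0.0696 to 0.372 and 1.22 to 2.19 CPM, and its log2 difference was 2.98 ± 0.50 (edgeR adjusted p = 0.0658). In both genes the groups did not overlap, but wild-type values rest on at most 4 and 7 estimated counts per library. Hist2h2be on chromosome 3 had 2.19 to 3.20 CPM in wild type and 3.28 to 4.02 in knockout, with a log2 fold change of 0.47 ± 0.22 (unadjusted p = 0.0474). Hist1h2be had 0.68 ± 0.31 (unadjusted p = 0.0441), with overlapping groups. Hist1h2bc, the copy with the most counts, had 100 to 133 CPM in wild type and 98.3 to 115 in knockout, a log2 fold change of -0.11 ± 0.11. Hist1h2bg (0.76 ± 0.50) and Hist1h2bf (-0.25 ± 0.41) also missed an unadjusted p of 0.05, and Hist1h2bh and Hist1h2bj had too few counts to be tested. The other 10 names of the H2B list match no row of the table. Of the 8 tested, 5 had an unadjusted p under 0.05 and a higher value in knockout, where 1.63% of all genes did, and 3 did without knockout library 2, 3 or 5 or without wild-type library 3 or 4. The summed H2B level overlapped between the groups, at 105 to 138 CPM in wild type and 110 to 127 in knockout. Of 21 tested genes for other histones, 0 had an unadjusted p under 0.05 by edgeR, with a median log2 fold change of 0.06.

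The longest annotated transcripts of Hist1h2br and Hist1h2bq were identical over all 1254 aligned bases, and Hist1h2br shared 373 of 378 aligned bases with Hist1h2bk and 375 of 377 with Hist1h2bc, the copy near 100 CPM whose value was below 0. Reads of Hist1h2br and Hist1h2bq can therefore have been divided between their rows in any proportion. The stretches shared with Hist1h2bk (476 bases long) and Hist1h2bc (1156 bases) cover only part of the 1256 bases of Hist1h2br. Reads from these stretches may also have been placed in the wrong row, and the rows are uncertain one by one. Relative to its mean, the sum of Hist1h2br and Hist1h2bq was tighter than either row. It was 0.726, 0.487, 0.337 and 0.319 CPM in wild-type libraries 1 to 4, and 5.38, 5.10, 3.89, 4.33 and 4.96 CPM in knockout libraries 1 to 5. On chow the same sum was 0.466 to 0.988 CPM in 3 wild-type livers and 4.86 to 5.56 CPM in 4 knockout livers. The sum was formed after the values were seen and has no test. Chow knockout library 4, which had only 0.265 CPM for Hist1h2bq, had 4.59 CPM for Hist1h2br. Hist1h2br by itself rose on chow too, where edgeR gave 2.68 ± 0.37 on the log2 scale with an adjusted p of 0.0163, and the difference between the diets was 0.50 (unadjusted p = 0.337). The chow call was lost by limma-voom (adjusted p = 0.114), with only the chow groups in the edgeR fit (0.302), and without chow knockout library 2 (0.0867), chow wild-type library 2 (0.142) or chow wild-type library 3 (0.0943).

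**Figure D1:**
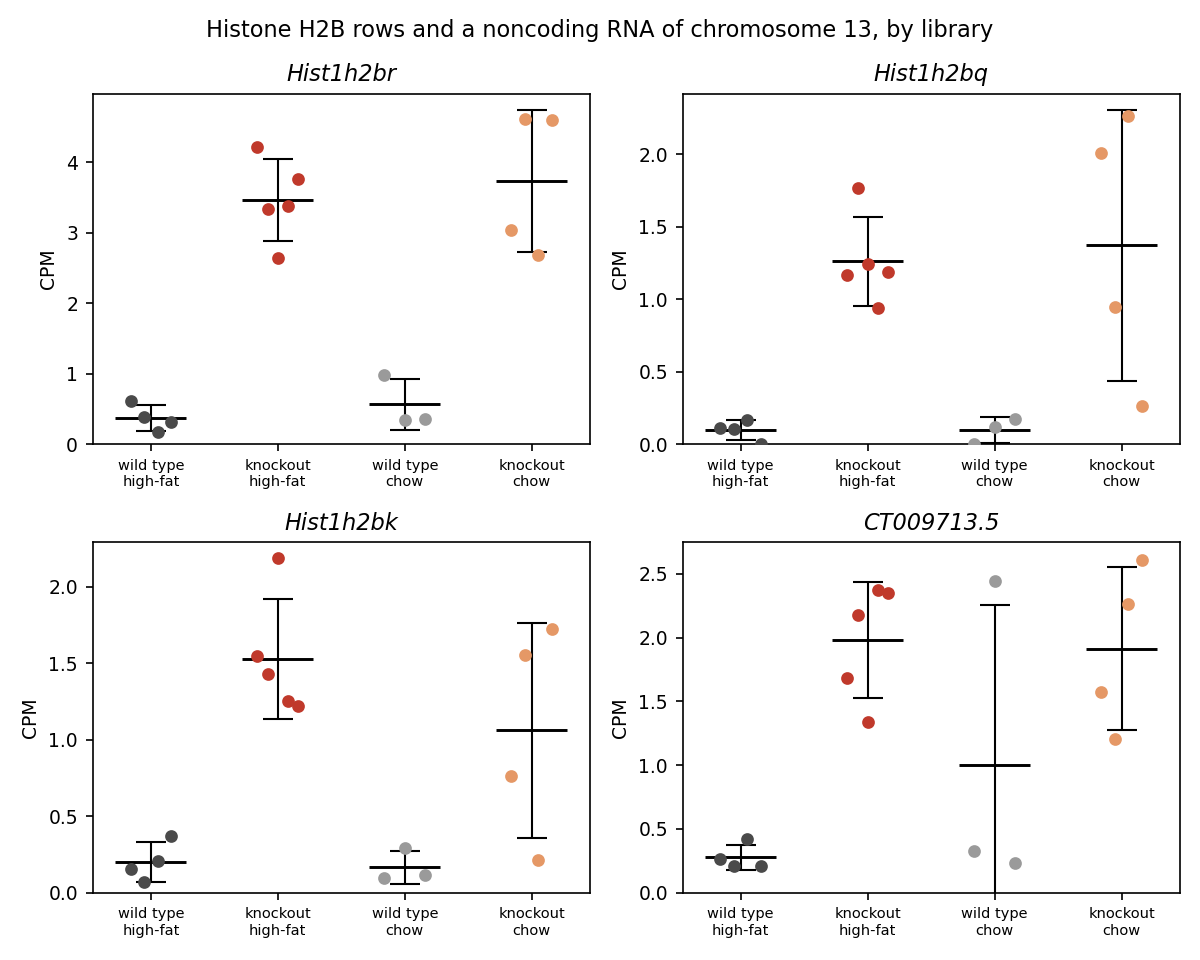
CPM (linear axis from 0) of 3 histone H2B rows and the noncoding RNA CT009713.5 in each library of the 4 groups, with the mean (bar) and SD (whiskers). On high-fat diet the knockout points lie above the wild-type points in all 4 panels, while on chow they do so only for Hist1h2br and Hist1h2bq.

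Several of the rows that stood out on high-fat diet lie on chromosome 13, among them the H2B copies, whose reads cannot be fully told apart. Others lie elsewhere, such as Abca1 on chromosome 4 and Cd93 on chromosome 2. CT009713.5, a long intergenic noncoding RNA at chr13:37541357-37549725, was named here after its values were seen. It had 0.268, 0.209, 0.421 and 0.213 CPM in wild type and 1.68, 2.18, 1.34, 2.37 and 2.35 CPM in knockout, with a log2 value of 2.81 ± 0.53 that missed the threshold (edgeR adjusted p = 0.179). In chow livers the knockout libraries had 1.21 to 2.61 CPM, but wild-type library 2 had 2.45 CPM beside 0.329 and 0.237 in the others. Cage1, a gene known from testis and tumours, had 0.168 to 0.497 CPM in wild type and 0.802 to 1.33 in knockout (log2 1.80 ± 0.39, unadjusted p = 0.000231). AC153150.1, also named after its values were seen, had 0.295 to 0.841 CPM against 0.977 to 2.21 (log2 1.33 ± 0.41). Hfe, which encodes a regulator of iron uptake and lies 1.87 Mb from Hist1h2br, went the other way, at 39.7 to 45.4 CPM in wild type and 32.7 to 38 in knockout (log2 -0.23 ± 0.07, unadjusted p = 0.00388).

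Within 20 Mb of Hist1h2br, a window chosen after the values were seen, the groups did not overlap in 13 of 200 tested genes (6.50%), against 5 of 482 (1.04%) on the rest of chromosome 13 and 1.24% over all genes. By the share of such genes, chromosome 13 ranked highest of all chromosomes at 2.64%, with chromosome 19 next at 2%. Besides those above, the 13 include Inhba, Gpr141, Ripor2, Cdkal1, Rreb1 and Ssr1, with log2 fold changes from -0.80 to 0.87. The window is centred on 1 of the 13, Hist1h2br, so part of this share follows from the choice. By an unadjusted edgeR p under 0.05 the contrast was smaller. Such a p was found in 6.50% of the 200 genes within the window and in 24 of 482 (4.98%) beyond it. Over all genes it was 3.81%. On both diets and in the same direction, 4 genes (0.0238%) did not overlap: Hist1h2bq, Hist1h2br and Hfe on chromosome 13, and Tnfaip8l3 on chromosome 9, with a log2 fold change of 0.67 under high-fat feeding and 0.94 under chow. Another 11 genes did not overlap on either diet, with opposite directions.

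**Figure D2:**
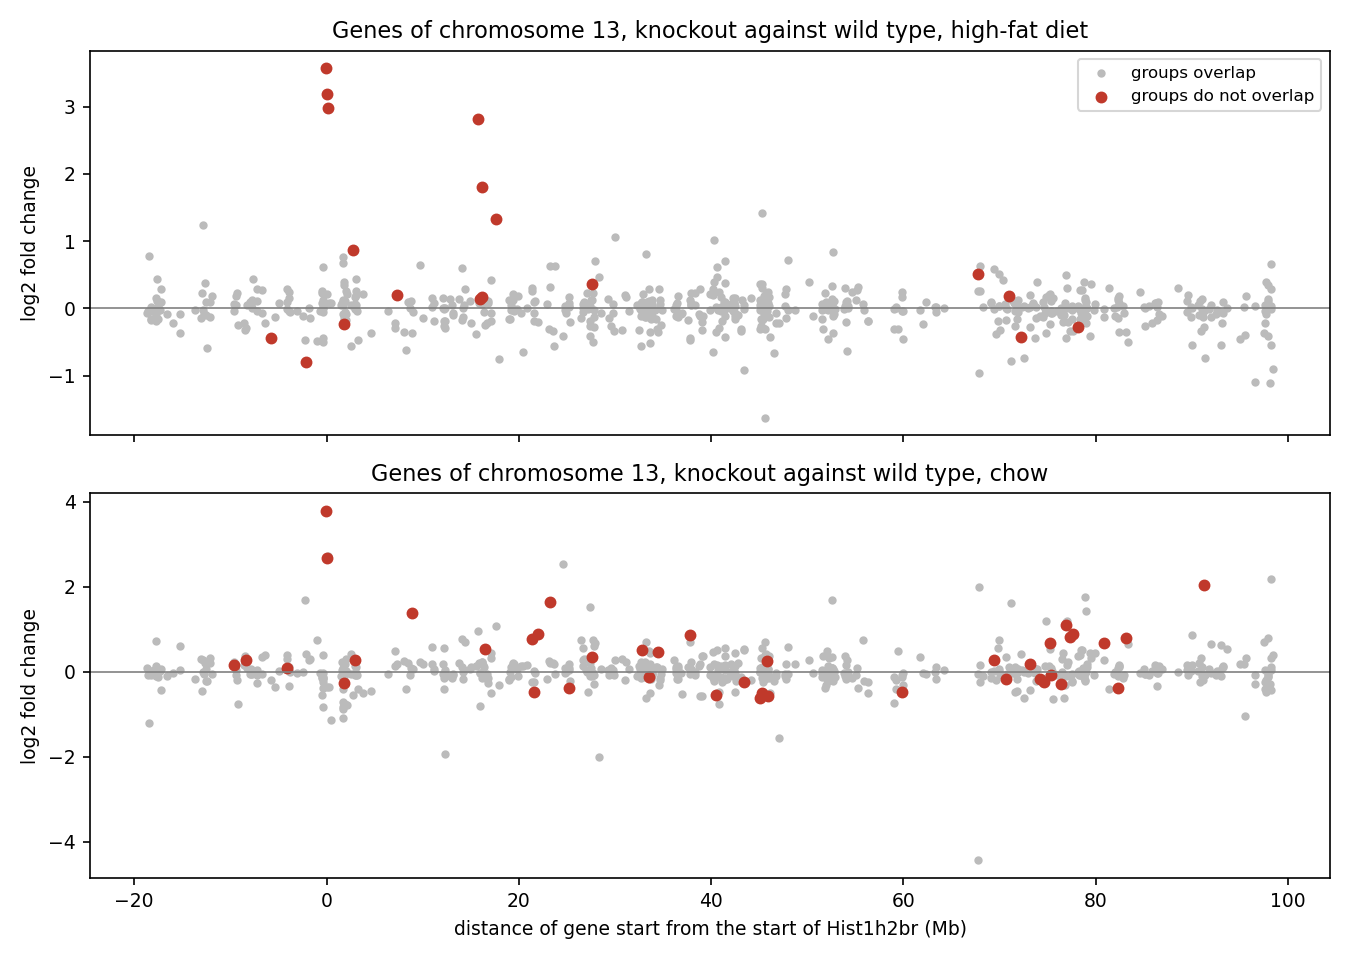
Log2 fold change of each tested gene of chromosome 13, knockout against wild type, against the distance of its start from the start of Hist1h2br in Mb, on high-fat diet (top) and chow (bottom). Red points are genes whose groups do not overlap; on high-fat diet 13 of these 18 lie within 20 Mb, and the H2B copies stand highest on both diets.

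Srebf2, within which the deleted microRNA lies, had 45.0 to 51.1 CPM in wild type and 40.7 to 59.9 in knockout. Of 152 tested genes within 5 Mb, 9 (5.92%) had an unadjusted p under 0.05, where 3.81% of all genes did. In 5 of the 152 (3.29%) the groups did not overlap, against 1.24% of all genes, and the median log2 fold change was -0.00. The smallest p there was for C1qtnf6, a secreted C1q-like protein, at 1.61 to 2.16 CPM in wild type and 0.953 to 1.35 in knockout (log2 -0.66 ± 0.23, unadjusted p = 0.00861). Cbx6, a Polycomb subunit, had -0.35 ± 0.14 and the gene model Gm17597 -1.43 ± 0.52.

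Abca1 was higher in knockout livers but did not pass over all genes. It had 258, 268, 279 and 272 CPM in wild-type libraries 1 to 4 and 376, 321, 353, 285 and 339 CPM in knockout libraries 1 to 5. Every knockout library lay above every wild-type library, knockout library 4 by the least. The log2 fold change was 0.32 ± 0.08 (95% interval 0.14 to 0.49, unadjusted p = 0.0012, edgeR adjusted p = 0.919), and it was 0.27 to 0.37 with 1 high-fat library left out. On chow the value was 0.22 (unadjusted p = 0.0275), with 245 to 289 CPM in knockout and 211 to 255 in wild type. Of the other 11 genes with 3 or more seed matches, Slc46a3 (log2 0.34, unadjusted p = 0.0322) and Plekha8 (0.17, 0.0254) had an unadjusted p under 0.05, and both were named after their values were seen. All 12 had values from -0.44 to 0.34, 6 of them above 0.

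Among the other reported targets no value reached an unadjusted p of 0.05, by role as follows. In sterol transport, Npc1, which moves cholesterol out of lysosomes, had a log2 fold change of 0.09 ± 0.08, and Abcg1, a sterol exporter of macrophages with 2 seed matches, -0.13 ± 0.16. In bile transport and synthesis, Abcb11, the bile salt export pump, had 0.19 ± 0.12, Atp8b1 0.05 ± 0.10 and Cyp7a1, the rate-limiting enzyme of bile acid synthesis, -0.18 ± 0.50. In fatty acid oxidation the values were closest to 0: Crot, which handles peroxisomal chains, had 0.07 ± 0.10, Cpt1a, the gate of mitochondrial import, 0.01 ± 0.12, and Hadhb, a subunit of the trifunctional protein, -0.00 ± 0.09. Crot had 503 to 557 CPM in wild type and 478 to 658 in knockout, and Cpt1a 607 to 814 and 600 to 792, so the groups overlapped throughout.

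In energy and insulin signalling, the AMP-kinase subunit gene Prkaa1 had 0.07 ± 0.11, the deacetylase gene Sirt6 -0.12 ± 0.20 and the insulin receptor substrate gene Irs2 0.13 ± 0.24. In glucose production, Pck1 had 0.05 ± 0.23 and G6pc -0.44 ± 0.29. Of the transcription factors and coregulators, Srebf1 (0.06 ± 0.23), Ppargc1a (0.03 ± 0.17), Ncoa1 (0.08 ± 0.07) and Nrip1 (0.04 ± 0.12) lay above 0. In mitochondrial fuel use, Pdk4 had 0.13 ± 0.46 and Slc25a25, a carrier of adenine nucleotides, 0.35 ± 0.27. In autophagy and lysosomes, Atg5 (0.05 ± 0.08), Lamp1 (0.03 ± 0.06), Tfeb (0.13 ± 0.27) and Foxo3 (0.18 ± 0.12) lay above 0, as did Ccnd1 (0.21 ± 0.29), Cdk6 (0.02 ± 0.08) and Pim1 (0.16 ± 0.17) of the cell cycle. Osbpl6 had too few counts to be tested.

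Of 27 targets tested, 22 were above 0 and their median was 0.06, beside 51.1% of all genes above 0 and a median of 0.00. Abca1 alone had an unadjusted p under 0.05, or 1 of 27 where 3.81% of all genes did. With 1 library left out, 17 to 22 of them lay above 0. The 95% interval lay within 1.5-fold either way in 20 of the 27. A seed match was found in 16 of the 27, with a median log2 fold change of 0.06, and 11 had none, also with a median of 0.06. Over all 987 genes with a match the median was 0.00, with 50.3% above 0, and over the 12130 genes without one it was 0.00, with 50.7% above 0. A match is a description of the letters and not a site in use.

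The 10 named genes with the smallest p in each direction were taken from those whose groups did not overlap, so their separation is part of the choice. Higher in knockout, after the H2B copies, Cage1 and Abca1, were Ppp1r3c, which targets phosphatase to glycogen (14.7 to 21.6 CPM in wild type and 22.7 to 33.2 in knockout; log2 0.52 ± 0.13, unadjusted p = 0.000629), Kdf1 (0.86 ± 0.23), the ribosomal protein gene Rpl9 (0.59 ± 0.16), Cchcr1 (0.93 ± 0.27) and the receptor gene Lrp3 (0.49 ± 0.15). Rpl9 belongs to a family with many near-identical pseudogenes, so its row is uncertain. Lower in knockout were Selp, Homer3, a scaffold of postsynaptic densities (1.97 to 2.33 CPM and 1.16 to 1.52; -0.76 ± 0.18), Myzap (-0.86 ± 0.20), the ephrin receptor gene Epha3 (-0.73 ± 0.18), Tcaf1 (-0.67 ± 0.16), Cd93, Mapk8ip3 (-0.57 ± 0.14), Cd14, Kirrel (-0.61 ± 0.17) and the protease gene Adamts9 (-0.79 ± 0.22). On chow, 6 of the 10 higher and 3 of the 10 lower genes had the same sign. By size, the largest falls that met the same conditions also included Mt2, a metallothionein, at 28.2 to 40.8 CPM in wild type and 11.0 to 24.3 in knockout (-1.0 ± 0.41, unadjusted p = 0.0298), Plxna3 (-0.96 ± 0.29), Megf6 (-0.94 ± 0.27) and Zfp52 (-0.91 ± 0.26). None of these passed over all genes.

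Endothelial markers were lower together in knockout livers on high-fat diet. Endothelial cells line the sinusoids and larger vessels of the liver and are not hepatocytes. Selp encodes P-selectin, by which activated endothelium and platelets catch leukocytes. It had 4.40, 3.90, 3.12 and 4.36 CPM in wild-type libraries 1 to 4 and 2.11, 2.21, 1.21, 1.81 and 1.55 CPM in knockout libraries 1 to 5, and every knockout value lay below every wild-type value. On the log2 scale this came to -1.15 ± 0.19, short of the threshold (edgeR adjusted p = 0.0591). Cd93, a receptor of endothelial adhesion, had 18.2 to 22 CPM in wild type and 12.2 to 15.2 in knockout (-0.48 ± 0.12, unadjusted p = 0.000685). Eng, a TGF-beta co-receptor, had 27.9 to 33.6 and 20.6 to 25.9 CPM (-0.36 ± 0.10, unadjusted p = 0.00228). Stab2, by which sinusoidal endothelium scavenges hyaluronan, had 31.4 to 50.9 and 25.4 to 35.7 CPM (-0.44 ± 0.13), and Pecam1 10.5 to 15.3 and 6.28 to 10.7 (-0.66 ± 0.18), and in both the highest knockout library was library 1.

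Of 30 endothelial markers, 28 lay below 0, with a median of -0.34, which was -0.21 with 24 below 0 when wild-type library 2 was left out. Of them 13 (43.3%) had an unadjusted p under 0.05 and a lower value, where 2.18% of all genes did, and 0 passed over all genes by edgeR. Among sinusoidal markers these were 9 of 15 (Stab1, Stab2, Lyve1, Pecam1, Flt4, Oit3, Eng, Tek and Cdh5), and among the others 4 of 15 (Selp, Cd93, Efnb2 and Plvap). Clec4g and Fcgr2b of the sinusoidal list lay above 0, at 0.18 and 0.05. The count was 6 without wild-type library 2 or without wild-type library 4, 8 without knockout library 3 and 19 without knockout library 1, where 2.49% of all genes did. The summed level of the 30 was 578 to 771 CPM in wild type and 516 to 649 in knockout. Knockout library 1 was the highest of its group at 649 CPM, and the other 4 knockout libraries, at 516 to 523, lay below every wild-type library. In bulk tissue, fewer cells of a type and less RNA per cell cannot be told apart.

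On chow the same markers lay on the other side. Of the 30, 29 were above 0 and 12 had an unadjusted p under 0.05 with a higher value, where 3.24% of all genes did and 5.95% had such a p in either direction. Summed levels were 650 to 744 CPM in knockout and 478 to 607 in wild type. The test of the difference between the diets gave an unadjusted p under 0.05 in 18 of the 30, all of them below 0, where 3.84% of all genes did and 6.6% in either direction. All 30 lay below 0, and 0 passed over all genes by edgeR. Cd93 had a difference of -0.93 (edgeR adjusted p = 0.416), Stab2 -0.91 and Eng -0.67. Selp was the marker below 0 on chow, at -0.22. As the chow title numbers split by genotype, an effect that follows them cannot be told apart from genotype here.

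**Figure D3:**
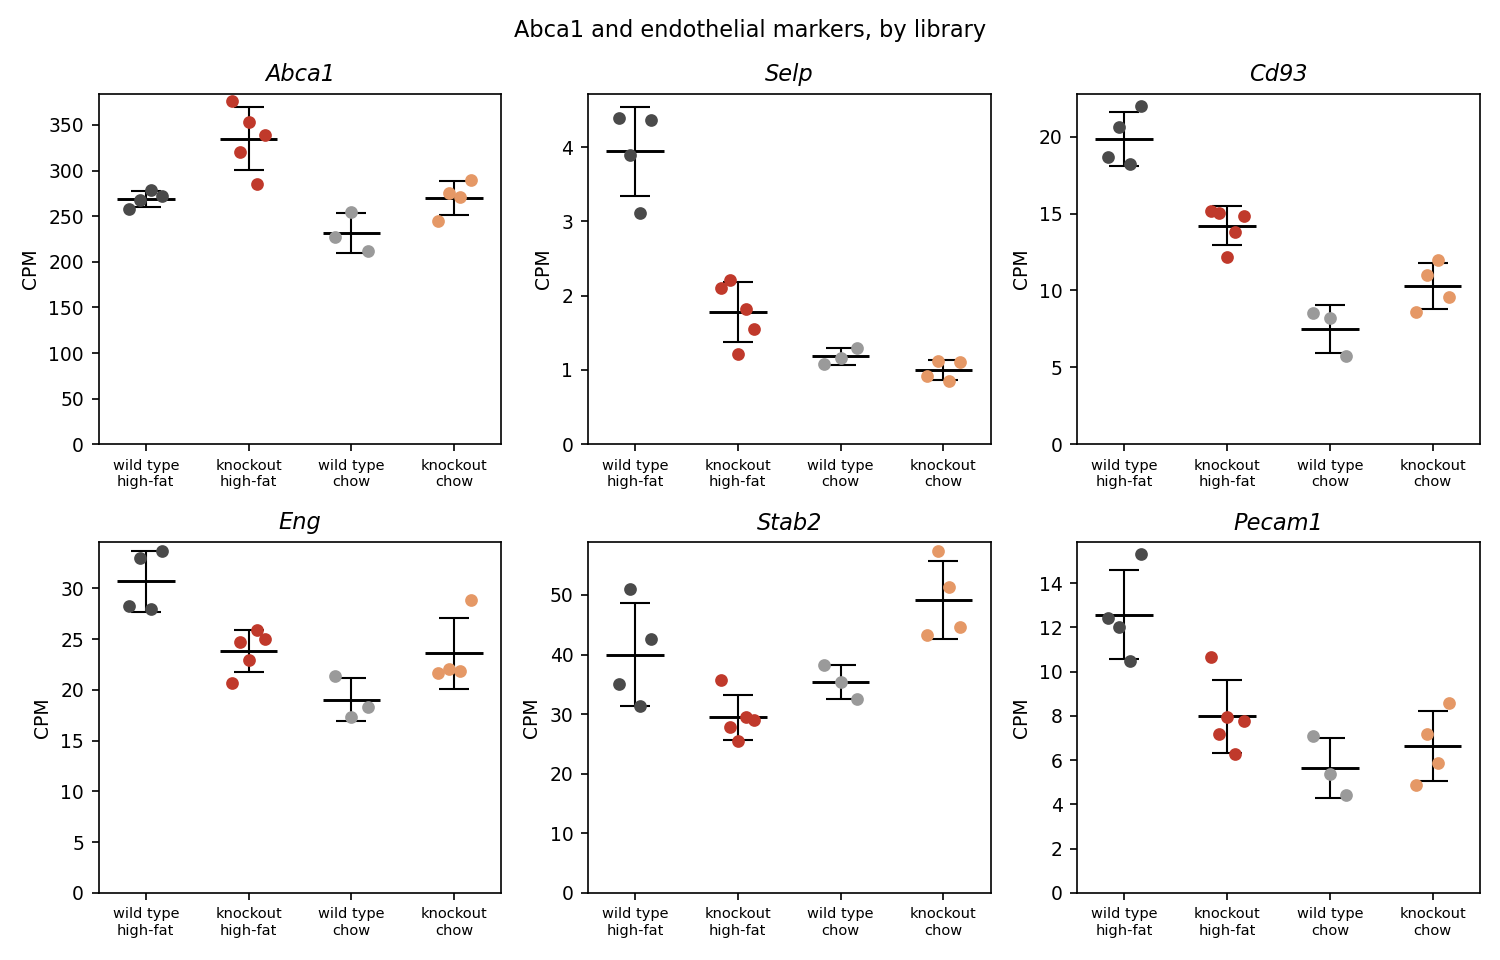
CPM (linear axes from 0) of Abca1 and 5 endothelial markers in each library of the 4 groups, with the mean (bar) and SD (whiskers). On high-fat diet knockout points lie above wild type for Abca1 and below it for Selp, Cd93 and Eng, while on chow Cd93 and Eng lie higher in knockout.

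Matrix and macrophage genes also lay mostly below 0 on high-fat diet, while B and plasma cell, T and NK cell and interferon-stimulated genes lay mostly above it. Of 38 fibrosis and matrix genes, 36 were below 0 with a median of -0.32, and 9 had an unadjusted p under 0.05 and a lower value, where 2.18% of all genes did. All 12 collagens were below 0, among them Col6a3 (21.6 to 34.2 CPM in wild type and 15.1 to 24.9 in knockout; -0.45 ± 0.16), Col4a2 of basement membranes (-0.30 ± 0.11) and Col14a1 (-0.39 ± 0.14). The count of 9 was 0 without wild-type library 4, 5 without knockout library 3, 6 without knockout library 1, 17 without knockout library 4 and 19 without wild-type library 1, so it turned on single libraries. Stellate cell markers, from the main matrix-producing cells of the liver, had a median of -0.24 with 12 of 15 below 0, and 0 had an unadjusted p under 0.05 by edgeR, the smallest being Pdgfra at -0.44 ± 0.22 (unadjusted p = 0.0623). That 0 became 7 without wild-type library 1, 6 without knockout library 4, and 2 without knockout library 1 or 5, and the median was -0.12 without wild-type library 4. Calls over all genes also rose in these fits. In either direction, 1044 of 16664 genes had such a p without wild-type library 1 and 1002 of 16635 without knockout library 4.

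Cd14, the lipopolysaccharide co-receptor of macrophages, had 8.25 to 10.7 CPM in wild type and 5.20 to 7.53 in knockout (-0.61 ± 0.17, unadjusted p = 0.00196). With it, 3 of 21 tested cytokine and chemokine genes had an unadjusted p under 0.05 with a lower value, the others being Ccl4 (-0.78 ± 0.36) and Cxcl14 (-0.36 ± 0.17), where 2.18% of all genes did. The count was 1 without knockout library 1 or 3 and 5 without wild-type library 3, and the median of -0.24 was -0.12 without wild-type library 4. Lipid-associated macrophage genes lay below 0 in 17 of 18, with a median of -0.24, led by Spp1, osteopontin, at 78.5 to 208 CPM in wild type and 54.3 to 105 in knockout (-0.77 ± 0.32). Spp1 is also in the list of cholangiocyte markers. Kupffer cell markers had a median of -0.11, with 12 of 15 below 0 and 0 under an unadjusted p of 0.05 by edgeR. Without knockout library 1 that median was -0.32 with all 15 below 0 and 1 under that p, without wild-type library 1 it was -0.27, without knockout library 2 -0.06, and without wild-type library 2 it turned to 0.05 with 10 above 0. Of the neutrophil markers 5 were tested and all lay below 0, with S100a8 (0.969 to 3.35 CPM and 0.842 to 1.70; -1.08 ± 0.35), S100a9 (-1.08 ± 0.41) and Mmp8 (-1.09 ± 0.48) under an unadjusted p of 0.05 (1 of them without wild-type library 1), where 2.18% of all genes had such a p and a lower value. Retnlg, Mpo, Elane, Camp and Cxcr2 had too few counts to be tested and Ly6g has no row. Cholangiocyte markers had a median of -0.54, which was -0.15 without wild-type library 2, with Krt19 of bile ducts at 1.03 to 1.85 CPM and 0.515 to 1.06 (-0.86 ± 0.33). Summed levels overlapped between the groups for each of these lists. For hepatocyte markers the median was 0.02 with 7 of 12 above 0. The part of cell composition in these differences was not tested. On chow, values lay above 0 in 15 of 15 Kupffer cell markers (median 0.60), 27 of 38 matrix genes (0.25), 17 of 21 cytokine and chemokine genes, 12 of 18 lipid-associated macrophage genes (0.08) and 12 of 15 stellate cell markers (0.12).

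**Figure D4:**
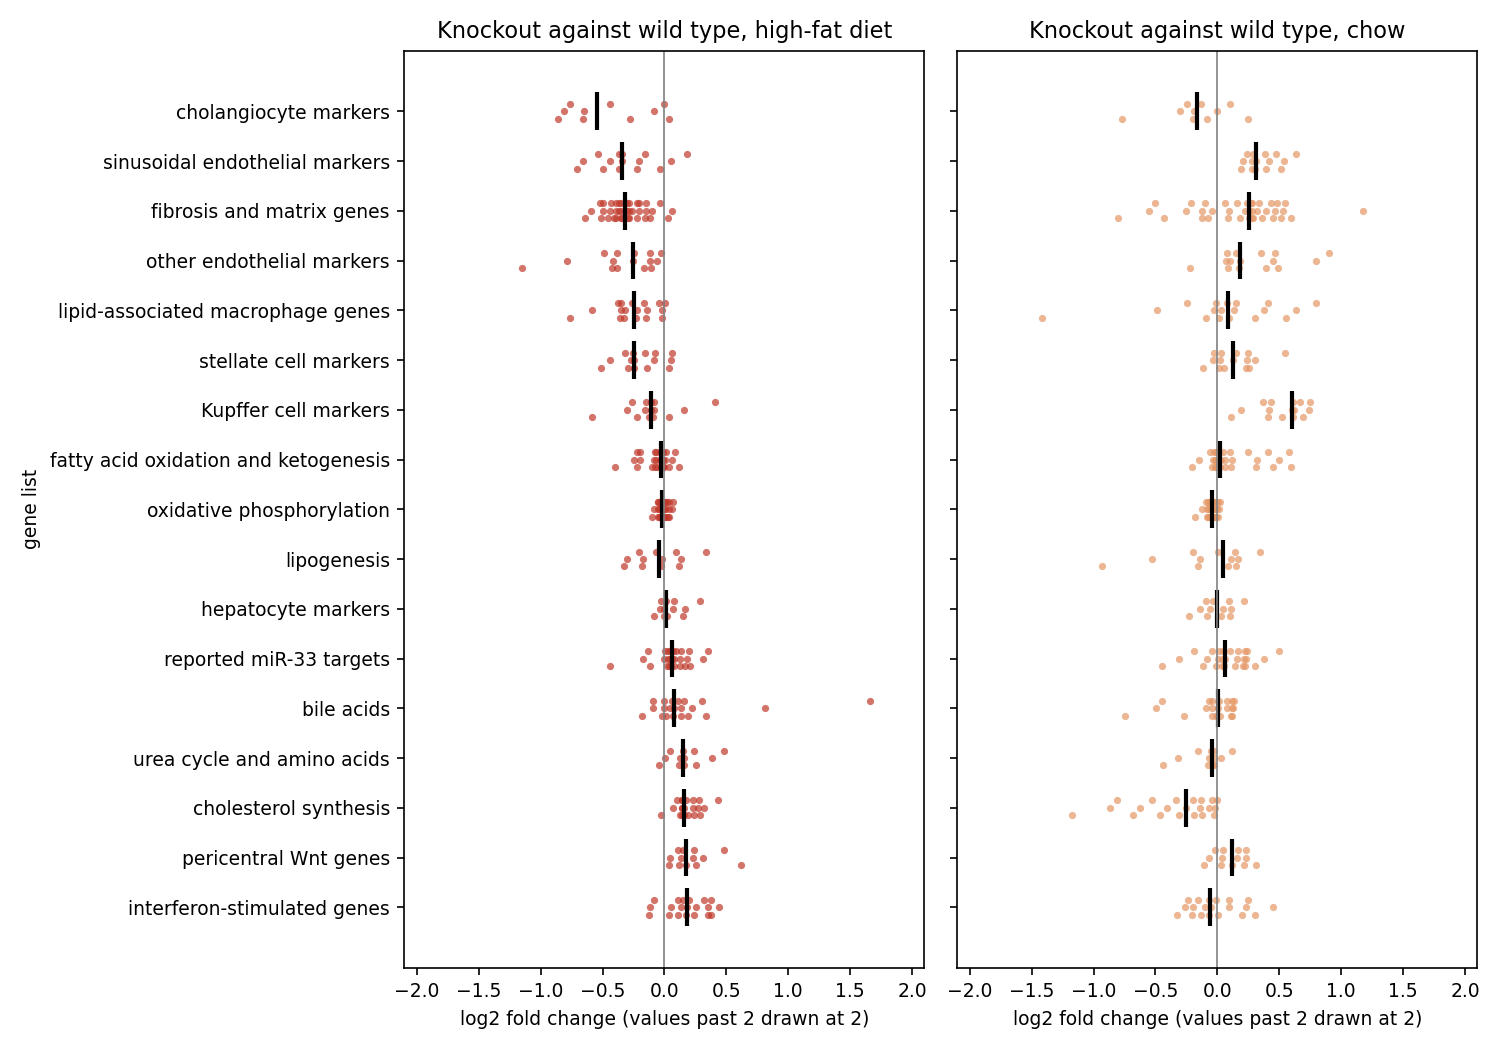
Log2 fold changes of the tested members of 17 gene lists (points) and the median of each list (black bar), knockout minus wild type, for high-fat feeding (left) and chow (right). On high-fat diet the endothelial, matrix and macrophage lists lie mostly left of 0 and the cholesterol synthesis and pericentral lists right of it, and on chow the medians of the endothelial, matrix, macrophage, stellate and cholesterol lists lie on the other side.

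Lists of metabolic genes of hepatocytes had medians near 0, with a precision that differed between the lists. Of 27 subunits of oxidative phosphorylation, the chain that makes ATP, 13 lay above 0 with a median of -0.02, and in all 27 the 95% interval was within 1.5-fold either way. Of 31 genes of fatty acid oxidation and ketogenesis, 6 lay above 0 with a median of -0.03, 0 had an unadjusted p under 0.05 by edgeR, and 26 had an interval within 1.5-fold. Without knockout library 1 it was 18 of 31 above 0 with a median of 0.02, so the side of 0 turned on that library. With all libraries, 0 of the 9 ketogenesis and PPAR alpha genes of this list lay above 0 (median -0.20). Of the 22 oxidation genes 6 did (median -0.02). Of 13 genes of HDL and sterol efflux, Apoa1, the main HDL protein, had -0.09 ± 0.09 and Lipc, hepatic lipase, 0.13 ± 0.11, with a median of 0.02. Lipogenesis had a median of -0.05, which turned to 0.11 without knockout library 1, and triglyceride and droplet genes -0.04, which turned to 0.02 without the same library. Without knockout library 3 the lipogenesis median was -0.34. Only 3 of 12 lipogenesis genes had an interval within 1.5-fold, beside 19 of 24 triglyceride and droplet genes and 5 of 10 fatty acid uptake genes. Small medians in lipogenesis and uptake therefore do not show that these genes were unchanged. In the first list Scd2, a desaturase, had -0.32 ± 0.13 (unadjusted p = 0.0274), and in the second Agpat2, an acyltransferase, 0.18 ± 0.08 (0.046). Fatty acid uptake genes included Fabp4, a carrier of adipocytes, macrophages and endothelium, at 17.9 to 26.5 CPM in wild type and 11.3 to 18.4 in knockout (-0.55 ± 0.17, unadjusted p = 0.00454), and Pparg (-0.40 ± 0.19).

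Some lists leaned one way with no member past an unadjusted p of 0.05. Of 21 cholesterol synthesis genes 20 lay above 0, with a median of 0.16 that was 0.29 without knockout library 1, 0.31 without knockout library 2, 0.26 without wild-type library 2, 0.09 without knockout library 3 and 0.05 without knockout library 5. Ebp, a sterol isomerase, had 109 to 159 CPM in wild type and 127 to 159 in knockout (0.17 ± 0.09), and Fdft1, squalene synthase, 55.3 to 69.2 and 55.0 to 92.0 (0.23 ± 0.14). The summed level of the 21 was 2070 to 2392 CPM in wild type and 1675, 1987, 2981, 2430 and 2999 CPM in knockout libraries 1 to 5. Knockout libraries 1 and 2 thus lay below every wild-type library and the other knockout libraries above every one. On chow all 21 lay below 0. Pericentral genes, which depend on Wnt signals from the central vein, were above 0 in 13 of 13, the median being 0.17, led by Cyp1a2 at 0.62 ± 0.30 (unadjusted p = 0.0557). Urea cycle genes lay above 0 in 11 of 12 (median 0.15, but 0.03 with 6 above 0 without wild-type library 2 and 0.06 without knockout library 1) and interferon-stimulated genes in 17 of 20 (median 0.18), with Isg15 at 0.38 ± 0.18. In bile acids, xenobiotic and NRF2 genes, acute phase, unfolded protein response, cell cycle, clock, glucose and hepatocyte transcription factor genes, medians ran from -0.12 to 0.10. Of these, Pfkl, a glycolytic phosphofructokinase, was the 1 member with an unadjusted p under 0.05 (-0.26 ± 0.10, unadjusted p = 0.0172). With 1 library left out, several of these medians near 0 changed sign. Of the xenobiotic and NRF2 genes 5 of 28 had an unadjusted p under 0.05 and a higher value without knockout library 1 or without wild-type library 1, against 0 with all libraries. Over all genes 1.26% did without knockout library 1. Without wild-type library 1, 1044 of 16664 genes had such a p in either direction. In sterol uptake and SREBP2 control 6 of 9 were above 0 (median 0.12), with Mylip, which marks the LDL receptor for degradation, at -0.33 ± 0.14 (unadjusted p = 0.0325). Iron genes had a median of -0.06 with 2 of 13 above 0, and without knockout library 1 it was -0.00 with 6 above 0. B and plasma cell markers had a median of 0.24 that turned to -0.08 without knockout library 1, T and NK cell markers 0.22 (0.03 without knockout library 3), dendritic cell markers -0.13 (-0.02 without knockout library 2 or wild-type library 4) and erythroid markers -0.64, each with 0 under an unadjusted p of 0.05 by edgeR. Of 7 erythroid markers 6 had such a p without knockout library 4, a fit in which 1002 of all 16635 genes did. The 1 tested adipocyte marker had -0.85.

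Growth hormone dependent genes showed how far 1 library could carry a list. Hsd3b5, a male-biased steroid enzyme, had 0.0348 to 0.306 CPM in wild type and 0.204, 0.516, 0.0349 and 0.231 CPM in knockout libraries 2 to 5, but 74.0 CPM in knockout library 1. Mup7, a major urinary protein, had 3013 CPM there and at most 80.9 in the other 8. Both had an unadjusted p under 0.05, with log2 fold changes of 6.82 ± 2.59 and 4.96 ± 2.17. Of 17 genes in the list 16 lay above 0 with a median of 0.34, and without knockout library 1 it was 6 with a median of -0.13, and 0 had an unadjusted p under 0.05 by edgeR. That count of 2 was also 0 without wild-type library 2, 1 without wild-type library 3 or 4, and 5 without knockout library 4, where 1002 of all 16635 genes had such a p. The same library had the lowest summed lipogenesis level, at 6970 CPM against 16261 to 26538 in the other 8, and the highest B and plasma cell level, at 172 CPM against 9.80 to 37.7. Ighm, the heavy chain of IgM, had 103 CPM there and at most 15 elsewhere on high-fat diet. The calls of Hist1h2br did not rest on it, with a log2 fold change of 3.11 without it.

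**Figure D5:**
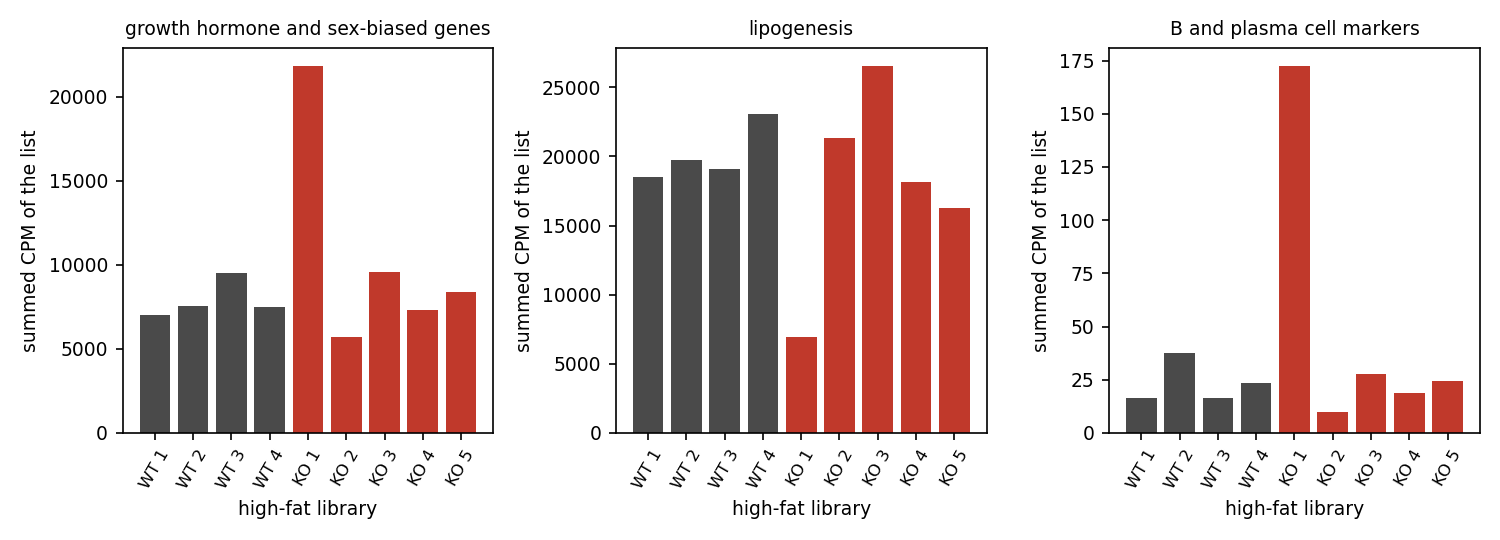
Summed CPM (linear axes from 0) of 3 gene lists in each high-fat library, wild type (WT) in grey and knockout (KO) in red. Knockout library 1 is the highest for growth hormone dependent genes and for B and plasma cell markers and the lowest for lipogenesis.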

How the data were processed

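The deposited table holds 1 row per gene and 1 column of estimated counts per library (23258 rows), in mm10 per the submitters' processing notes. Per the labels' protocols, trimmed reads went through TopHat2 and then Cuffdiff, with versions and strand setting not given in the sources used here. These labels name a small RNA library kit beside ribosomal RNA depletion, which was not reconciled. The smallest row total was 10. Of 22 gene names turned into dates, 19 were recovered from coordinates.

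Estimated counts were rounded to whole numbers. edgeR 4.0.16 (R 4.3.3) kept 16830 genes by filterByExpr, scaled by TMM and fitted a robust quasi-likelihood model to all 16 libraries, 1 mean for each of the 4 groups, leaving 12 residual degrees of freedom. The genotype effect on each diet and the difference of these effects were tested two-sidedly, with Benjamini-Hochberg adjustment across the tested genes at 0.05. SE is the absolute log2 fold change over the square root of F. Rows of near-identical, overlapping or antisense genes are uncertain. The fit was tested on simulated counts. Alternatives used DESeq2 1.42.0, limma 3.58.1 voom, other scaling and filters, only the groups compared, the runs of title numbers as a term, and each library left out.

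The comparison, the 39 lists and the named genes were chosen with earlier results of these data known. Named were genes that passed, Srebf2, all measured reported targets and H2B genes, the 10 smallest p and 5 largest changes each way among annotated genes of at least 1 CPM whose groups did not overlap, the 3 smallest p of every list and near Srebf2, and Nnt, Xist, Ddx3y and Alb. Seed matches were sought in the longest 3′ untranslated region of GENCODE M21, of at least 20 bases. Libraries are numbered in accession order, and the high-fat titles were split into 3 runs wherever their numbers jumped by more than 10. One named gene is not reported here.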

Additional observations from a re-analysis of the deposited data

Results flagged for a closer look

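In 18 of 330 groups examined (5.45%), 1 library lay far from the others of its group for a named gene, by Dixon's test at the 95% level, where chance marks about 1 in 20 groups. The share of 5.45% is close to that rate, so a single flag does not mark a gene as unusual. Over all 16830 genes, 558 (3.32%) were flagged for knockout library 1 and 89 to 253 for each other high-fat library. Knockout library 1 on high-fat diet was the library in 9 of the 18. It was high for the growth hormone dependent genes Hsd3b5 (74.0 CPM), Mup1 (386 CPM), Mup7 (3013 CPM) and Slco1a1 (159 CPM), and for the antibody genes Ighm (103 CPM), Igkc (45.2 CPM) and Jchain (13.9 CPM). It was apart for Saa3 of the acute phase (8.42 CPM), and low for Ccnd1 (35.4 CPM). Wild-type library 1 was apart for Bgn (108 CPM), Creld2 (30.5 CPM), Mapk8ip3 (5.01 CPM) and Mup7 (63.2 CPM). Wild-type library 2 was apart for Hsd17b7 (56.1 CPM) and Prox1 (141 CPM), and wild-type library 4 for Trf (13147 CPM). Knockout library 2 was apart for Tnfaip8l3 (2.11 CPM), and knockout library 4 for Ppargc1a (16.6 CPM).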

How the results depend on the processing

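The count of genes passing on high-fat diet was 1 in the reported fit and also 1 with RLE scaling, a stricter filter, no ribosomal RNA row and each of the 9 high-fat libraries left out (1 to 1). It was 7 by DESeq2, 4 with only the groups compared, 3 with no filter, 3 with the run of title numbers as a term and 2 by limma-voom. Hist1h2br passed in each of these. Selp was added by DESeq2, limma-voom and no filter, Hist1h2bk by DESeq2, no filter and the groups-compared fit, and Hist1h2bq and CT009713.5 by DESeq2, the groups-compared fit and the run term. DESeq2 alone added Gm37240 (adjusted p = 0.00819) and Hsd3b5 (adjusted p = 0.0226). The high value of Hsd3b5 was in knockout library 1 only. On chow the count of 1 became 2 by DESeq2, 0 by limma-voom and 0 with only the groups compared, and 0 to 3 with a library left out. For the difference between diets, the 0 became 1 by DESeq2 and 0 to 4 with a library left out, 4 being without chow wild-type library 1. The cause was not tested. Of 166 named genes with alternatives, up to 8 changed sign in a setting, most without knockout library 1. In simulated counts edgeR recovered 46.3% of 67 genes changed 1.5-fold on high-fat diet, 70.1% of 67 at 2-fold and 90.9% of 66 at 4-fold. It also called 5 unchanged genes. All these changes were planted together, which loosens the adjusted threshold, whereas 1 gene passed in the real fit. The shares therefore do not say how many real changes of these sizes were missed. No paired analysis was possible because the labels give no replicate numbers shared between the groups.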
